A study of Mus musculus with 2 samples.

Results

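Mir205, Mir31 and Mir375 are microRNA genes known from the different kinds of epithelium that line the mouse stomach. They were found in the count tables by their Ensembl identifiers, and all 3 were present among 1973 genes counted. The tissue was whole stomach of B6NCrl mouse embryos, aged 14.5 days, with no treatment or genetic change in the labels, and the RNA was size selected below 30 nt. The group comprised 2 biological replicates, collected on 17 July (replicate 2) and 15 July (replicate 1). The labels give both replicates the same donor entry, so the SDs may not measure the spread between separate animals. Each is labelled as a single stomach and also as pooled male and female, so pooling of embryos cannot be told from the labels. Day of collection and replicate are the same split and cannot be told apart.

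The forestomach of the mouse is lined by a stratified squamous epithelium, and the hindstomach by a glandular epithelium that also gives rise to endocrine cells. A microRNA is cut from a hairpin precursor and pairs with messenger RNAs mainly through its seed, bases 2 to 8 of the mature strand. Mir205 is a microRNA of stratified epithelia such as skin and oesophagus, and together with the Mir200 family it represses the transcription factors Zeb1 and Zeb2. Mir31 is known from keratinocytes and hair follicles. Mir375 is known from pancreatic islets, where it restrains insulin secretion through myotrophin, and is also found in gastric epithelium. The libraries hold RNA of the whole organ, so levels were not measured in forestomach and hindstomach apart. In whole tissue, fewer cells of a type and less RNA per cell cannot be told apart.

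The 3 hairpins are shown because the tables count reads per hairpin and not per arm. The sequences are RefSeq's on GRCm38.p6, written 5′ to 3′, with the arm annotated on the 5′ side (5p) in capitals.
Mir205 hairpin: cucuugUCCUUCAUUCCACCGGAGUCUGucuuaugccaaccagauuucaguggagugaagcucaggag
Mir31 hairpin: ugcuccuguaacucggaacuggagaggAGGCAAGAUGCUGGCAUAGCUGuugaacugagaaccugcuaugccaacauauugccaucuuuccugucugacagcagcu
Mir375 hairpin: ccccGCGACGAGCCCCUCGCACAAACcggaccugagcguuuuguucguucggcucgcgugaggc

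The annotated mature strands are shown with the seed in capitals, since the seed decides which messenger RNAs are paired.
mmu-miR-205-5p: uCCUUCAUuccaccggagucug
mmu-miR-205-3p: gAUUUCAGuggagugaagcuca
mmu-miR-31-5p: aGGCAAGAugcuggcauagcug
mmu-miR-31-3p: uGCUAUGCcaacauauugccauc
mmu-miR-375-5p: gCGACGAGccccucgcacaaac
The remaining strand, miR-375-3p, has no entry in the RefSeq set used, so its sequence is not shown. Its seed and its matches were not checked, and the seed shown for miR-375-5p is not that of miR-375-3p. Since counts are per hairpin, the share of Mir375 reads that came from miR-375-3p was not measured. The seed and match checks given here for miR-375-5p may therefore not cover most of the Mir375 reads. The seeds of the 5 strands shown differ from each other, and each was shared with 0 other genes among 1738 mature strands of the table. The strands shown are 22 nt long, except miR-31-3p at 23 nt. In Mir205 and in Mir31 the arms are separated by 14 bases. The Mir375 hairpin is the richest in G and C of the 3, at 67.2%, above 94.6% of the 1005 hairpins in the table. The hairpins of Mir205 and Mir31 both have 50.0% G and C, against a median of 51.7%.

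Because reads that map to several places were counted for no gene, each hairpin was searched for stretches held in common with the other 1004. The longest run that Mir205 shares with any of them, on either strand, is 14 nt (with Mir6397). For Mir31 it is 12 nt (with Mir6984 and Mir7686), and for Mir375 it is 10 nt (with Mir208b). Among the 3 hairpins themselves the longest common run is 9 nt. In the transcripts of GENCODE M21, the 5 strands shown above were found, as exact matches, only in the member's own gene and, for Mir205 and Mir31, in the long noncoding RNA around it. The genome itself was not searched.

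All 3 genes lie on the minus strand of GRCm38 and stand apart from other microRNAs. Mir205 (ENSMUSG00000065533.1) is at chromosome 1, 193507463 to 193507530, in exon 2 of 2 of the long noncoding RNA gene 4631405K08Rik, which RefSeq names Mir205hg. Mir375 (ENSMUSG00000065616.2) is on the same chromosome at 74900658 to 74900721, 119 Mb from Mir205. It overlaps no other annotated gene and lies between Cryba2, a crystallin gene 7.515 kb away, and Cfap65, 1.35 kb away. Mir31 (ENSMUSG00000065408.1) is at chromosome 4, 88910557 to 88910662, in exon 3 of 3 of the long noncoding RNA gene AL805899.1. Its nearest protein-coding gene is the interferon gene Ifne, at 30.4 kb. None of the 3 has another microRNA gene of the same strand within 10 kb, which is also true of 76 of the 196 genes of 100 CPM or more (38.8%). CPM is counts per 1000000 gene counts. Every count of the 3 genes came from their own strand. The opposite strand had 0 counts in both libraries, which allows up to 0.0063% of the Mir205 reads, 0.014% of the Mir375 reads and 0.10% of the Mir31 reads in replicate 2. Of the 196 genes, 167 likewise had 0 opposite-strand counts.

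Summed over genes, replicate 2 held 4679914 counts and replicate 1 held 5004548, and a count of 3 corresponds to 0.641 and 0.599 CPM. The minimum used for detection, 10 counts in both libraries, was met by 361 genes. Markers of the tissue layers known in the stomach were present in replicate 2 and replicate 1, with list totals of 146512 and 164146 CPM for smooth muscle, 41482 and 41439 CPM for the epithelial Mir200 family, 15864 and 14629 CPM for mesenchyme, and 19164 and 21613 CPM for endothelium. Mir143 gave nearly all of the smooth muscle total, at 143726 CPM in replicate 2 and 161255 CPM in replicate 1. Mir214 gave nearly all of the mesenchyme total, at 15197 and 14036 CPM, and the endothelium list holds Mir126a alone. The neural list totalled 1834 and 1671 CPM, nearly all of it from Mir137, its sole detected gene, at 1832 and 1669 CPM. Blood markers totalled 734 and 647 CPM. Of other organs, intestinal markers totalled 1309 and 1560 CPM, and the lists were lower at 65.8 and 56.7 CPM for liver, 5.98 and 6.59 CPM for pancreatic acini and 10.5 and 17.4 CPM for striated muscle. Of the 6 neural and 5 striated muscle genes counted, 3 and 2 had 0 counts in both libraries, and several of these have near-identical copies whose reads the tables leave out.

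Mir205 was the most abundant of the 3 genes. It had 47910 counts in replicate 2 and 46540 in replicate 1, or 10237 CPM (exact 95% binomial interval 10146 to 10329) and 9299.5 CPM (9216 to 9384). Its mean of 9768 ± 663 CPM (SD, n = 2) ranked 21st of all genes and was 70.1-fold above the median detected gene, which stood at 139 CPM. It ranked 21st in replicate 2 and 23rd in replicate 1. Close to 1 in 100 gene counts belonged to Mir205, 1.02% in replicate 2 and 0.930% in replicate 1. Intervals cover counting error within a library only. Reads carry no molecular identifiers, so even the counting error may be larger than the intervals.

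Mir375, the glandular and endocrine marker, came second of the 3. It had 21894 counts in replicate 2 and 27783 in replicate 1, or 4678 CPM (4617 to 4741) and 5552 CPM (5487 to 5617). The mean was 5115 ± 617 CPM (SD, n = 2), which is rank 42 and 36.7-fold above the median detected gene. The libraries placed it at rank 46 in replicate 2 and rank 36 in replicate 1, the widest shift in rank among the 3 genes. Its SD was 12.1% of the mean, against 6.79% for Mir205 and 2.02% for Mir31.

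Mir31, the other gene of stratified epithelium, was the lowest of the 3. It had 2890 counts in replicate 2 and 3180 in replicate 1, or 618 CPM (595 to 640.5) and 635 CPM (614 to 658). The mean was 626 ± 12.6 CPM (SD, n = 2), at rank 123 in each library and 4.50-fold above the median detected gene. Its counting intervals overlapped between the libraries, which those of Mir205 and of Mir375 did not. Overlap was not counted over all genes. In the binomial test between libraries given below, 62.8% of the 196 genes of 100 CPM or more differed by adjusted p, so this contrast is no result about the 3 genes. The level thus fell in the order Mir205, Mir375, Mir31 in both libraries, and no neighbours in that order overlapped.

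**Figure D1:**
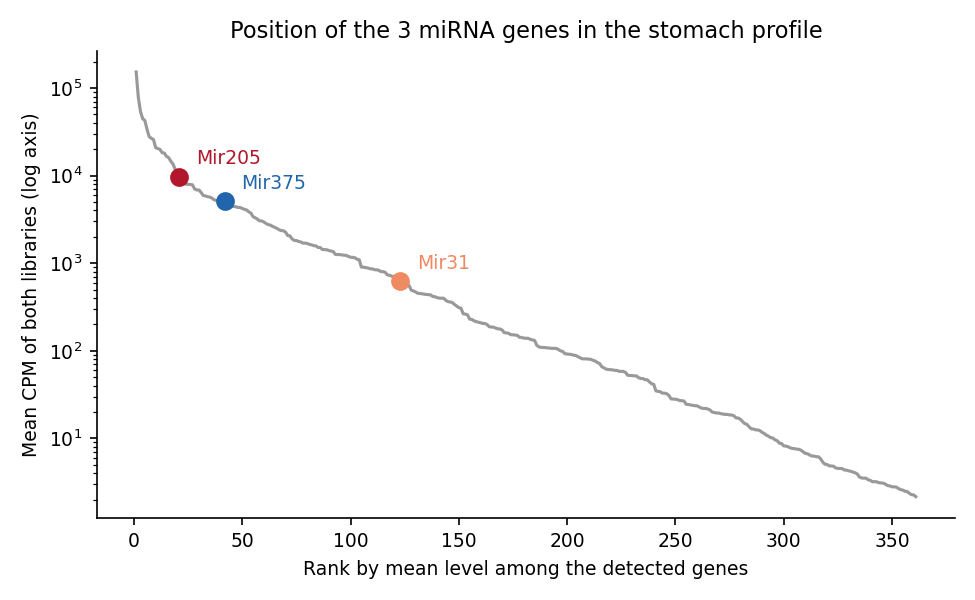
Mean CPM of both libraries (log axis) against rank for the 361 detected genes (grey line), with the 3 genes as points. Mir205 is at rank 21, Mir375 at rank 42 and Mir31 at rank 123.

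The balance of the stratified marker over the glandular marker was then taken within each library, where library size cancels. Each read is a small RNA about as long as a mature strand, so counts were not divided by hairpin length. Capture during library preparation can differ between sequences by an amount that was not measured, so these are ratios of counts and not of molecules. Mir205 had 2.19 times the counts of Mir375 in replicate 2 (95% interval 2.15 to 2.22) and 1.68 times in replicate 1 (1.65 to 1.70). On the log2 scale the ratio was 1.13 in replicate 2 and 0.74 in replicate 1, with a mean of 0.94 ± 0.27 (SD, n = 2). Mir205 was the higher of the pair in both libraries, while the size of its lead differed between them by 1.31-fold, more than the counting intervals. With 2 libraries an exact permutation test cannot reach a threshold, so no p is given.

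Both abundant genes exceeded Mir31 by far more than the spread between libraries. Mir205 had 16.6 times the counts of Mir31 in replicate 2 and 14.6 times in replicate 1, a log2 ratio of 3.96 ± 0.13 (SD, n = 2). Mir375 had 7.58 times the counts of Mir31 in replicate 2 and 8.74 times in replicate 1, a log2 ratio of 3.02 ± 0.15. The markers chosen for stratified epithelium therefore do not share a level, and Mir375 lies between them. Of the reads of the 3 genes together, Mir205 held 65.9% in replicate 2 and 60.0% in replicate 1, Mir375 held 30.1% and 35.8%, and Mir31 held 3.98% and 4.10%. Together they made up 1.55% of gene counts in each library.

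The Mir200 family (Mir200a, Mir200b, Mir200c, Mir141 and Mir429) is expressed in epithelia of many kinds and gives a scale within the epithelium. Mir205 had 24.7% as many counts as this family in replicate 2 and 22.4% in replicate 1. Mir375 had 11.3% in replicate 2 and 13.4% in replicate 1. Mir31 had 1.49% in replicate 2 and 1.53% in replicate 1. Against the family the log2 ratios were -2.09 ± 0.10 for Mir205, -3.02 ± 0.18 for Mir375 and -6.05 ± 0.03 for Mir31 (SD, n = 2). The family total differed by less than 1 part in 100 between the libraries, so dividing by it kept the directions seen in CPM. Its members did not all hold steady. The log2 ratio of replicate 2 over replicate 1 was 0.16 for Mir200c and -0.10 for Mir429, with the other members between. The directions therefore hold against the family total, and single members were not used as denominators. The order within a library could not change, since all 3 genes are divided by the same total.

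**Figure D2:**
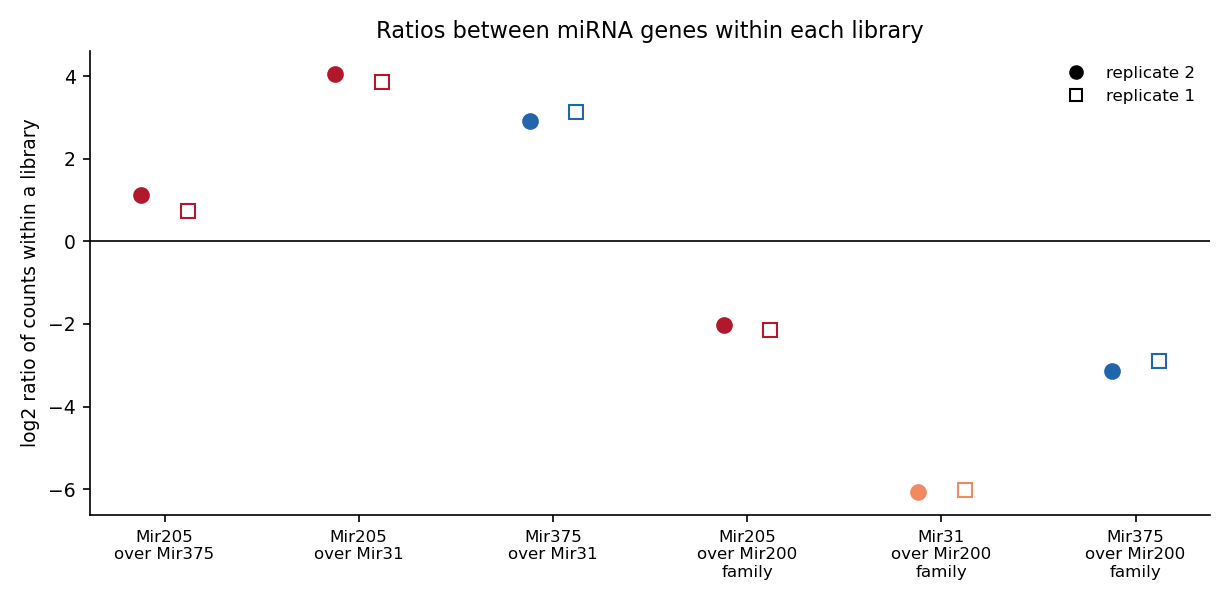
Log2 ratio of counts within a library for each pair of the 3 genes and for each gene over the Mir200 family, in replicate 2 (filled circles) and replicate 1 (open squares), with exact 95% counting intervals that are smaller than the symbols. Mir205 lies above Mir375 by 1.13 in replicate 2 and 0.74 in replicate 1.

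The libraries were compared gene by gene to place these differences among those of all genes. The exact conditional binomial test, with p-values adjusted by Benjamini-Hochberg across the 361 detected genes, compares these libraries and not conditions, and weighs counting error alone. Mir205 was higher in replicate 2, with a log2 ratio of replicate 2 over replicate 1 of 0.14 (95% interval 0.12 to 0.16, adjusted p = 3.64e-48). Mir375 was lower in replicate 2, with a log2 ratio of -0.25 (-0.27 to -0.22, adjusted p = 4.36e-79). Mir31 had a log2 ratio of -0.04 (-0.11 to 0.03, adjusted p = 0.404). By adjusted p under 0.05 alone, 2 of the 3 genes thus differed, where 42.1% of all detected genes did, and 62.8% of the 196 genes of 100 CPM or more, so the count is no result about these genes. None of the 3 passed the further threshold of an absolute log2 ratio of 1, which 1.11% of the detected genes passed.

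Among the 196 genes of 100 CPM or more, whose log2 ratios had an SD of 0.20, the shift of Mir205 was exceeded in size by 79, that of Mir31 by 159 and that of Mir375 by 39. Mir375 stood nearer to the edge of the distribution, with 12 genes lower. Mir205 stayed higher and Mir375 lower in replicate 2 under each of 6 other scalings, from 0.05 to 0.14 for Mir205 and from -0.34 to -0.25 for Mir375. The call on Mir31 did depend on the scaling. Its log2 ratio was -0.09 with edgeR's TMM factors (adjusted p = 0.0259), -0.13 with DESeq2's size factors (adjusted p = 0.00114) and -0.09 when the 5 most abundant genes were taken out of the totals (adjusted p = 0.0353), all by the same binomial test. Over all detected genes, those past the adjusted p split into 89 higher and 63 lower in replicate 2 with gene totals, 74 and 94 with TMM factors, 58 and 115 with size factors, and 74 and 92 without the 5 most abundant genes.

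**Figure D3:**
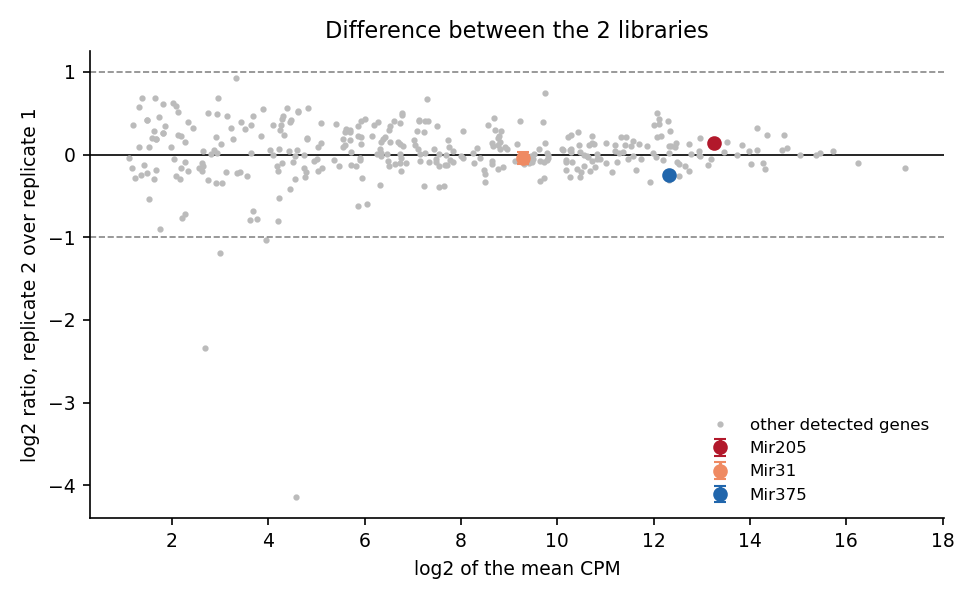
Log2 ratio of replicate 2 over replicate 1 against log2 of the mean CPM for the 361 detected genes (grey), with the 3 genes in colour and their exact 95% counting intervals. Mir205 is at 0.14, Mir31 at -0.04 and Mir375 at -0.25, all inside the dashed lines at 1 and -1.

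**Figure D4:**
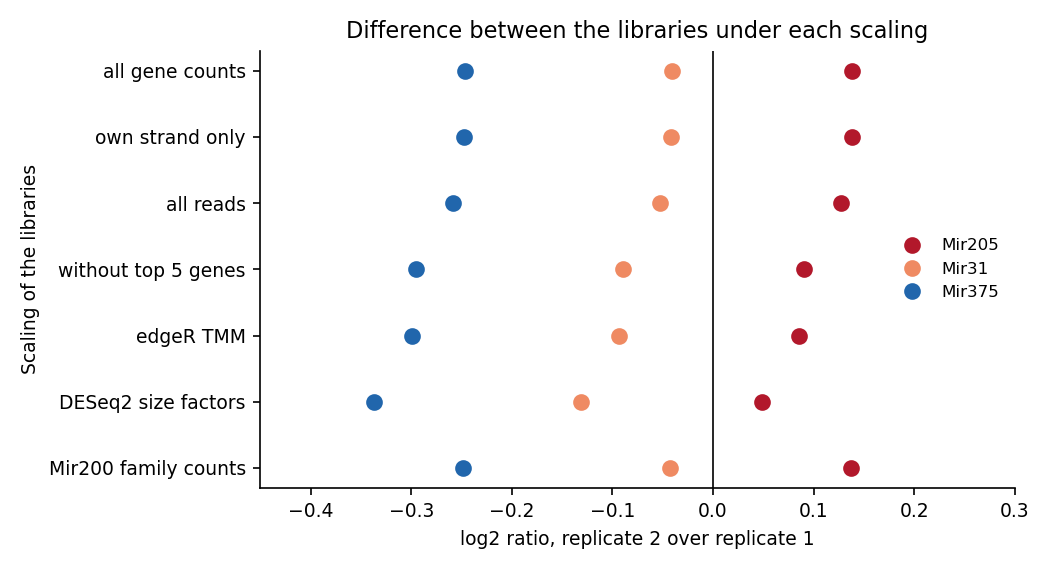
Log2 ratio of replicate 2 over replicate 1 for the 3 genes under 7 ways of scaling the libraries, from all gene counts (top) to counts of the Mir200 family (bottom). Mir205 remains above 0, and Mir31 and Mir375 remain below 0.

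Other microRNAs of the same epithelia were compared between the libraries in the same way. The numbers of genes called in these lists include Mir205 and Mir375 themselves. By adjusted p alone, 62.8% of the genes of 100 CPM or more were called in either direction, so these numbers are no result about the lists. The stratified list holds Mir205, Mir203, which represses the stem cell factor p63 in skin, Mir31, and Mir184, known from cornea. All 4 were detected, and by adjusted p alone 1 was higher and 1 lower in replicate 2, where 24.7% and 17.5% of all detected genes were. The higher gene was Mir205. The lower was Mir203, at 6391 CPM in replicate 2 and 7329 CPM in replicate 1, a log2 ratio of -0.20. Mir184 had 3.85 CPM in replicate 2 and 3.20 CPM in replicate 1, and with 18 and 16 counts a difference was not detectable at this depth. The list total was 17250 CPM in replicate 2 and 17267 CPM in replicate 1, and its median log2 ratio was 0.05, against 0.04 over all detected genes.

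In the glandular and endocrine list all 5 genes were detected, and Mir375 held 72.9% of its counts in replicate 2 and 77.8% in replicate 1. The list total was 6419 CPM in replicate 2 and 7136 CPM in replicate 1. By adjusted p alone, 2 genes were higher and 2 lower in replicate 2, where 24.7% and 17.5% of all detected genes were. The higher were Mir7b, at 499 and 408 CPM, and Mir7-1, at 103.8 and 81.5 CPM in replicate 2 and replicate 1. Mir7 is a microRNA of endocrine and neuronal cells. The lower were Mir375 and Mir7-2, at 15.4 and 22.2 CPM. Mir7-1 and Mir7-2 share their mature sequence, so their levels are uncertain. Mir148a, a microRNA of gastric and liver tissue, had 1122 CPM in replicate 2 and 1073 CPM in replicate 1 (adjusted p = 0.0505 by the binomial test). The median log2 ratio of the list was 0.06, so the lower total in replicate 2 came from Mir375, its most abundant member. None of the genes of either list passed both thresholds.

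**Figure D5:**
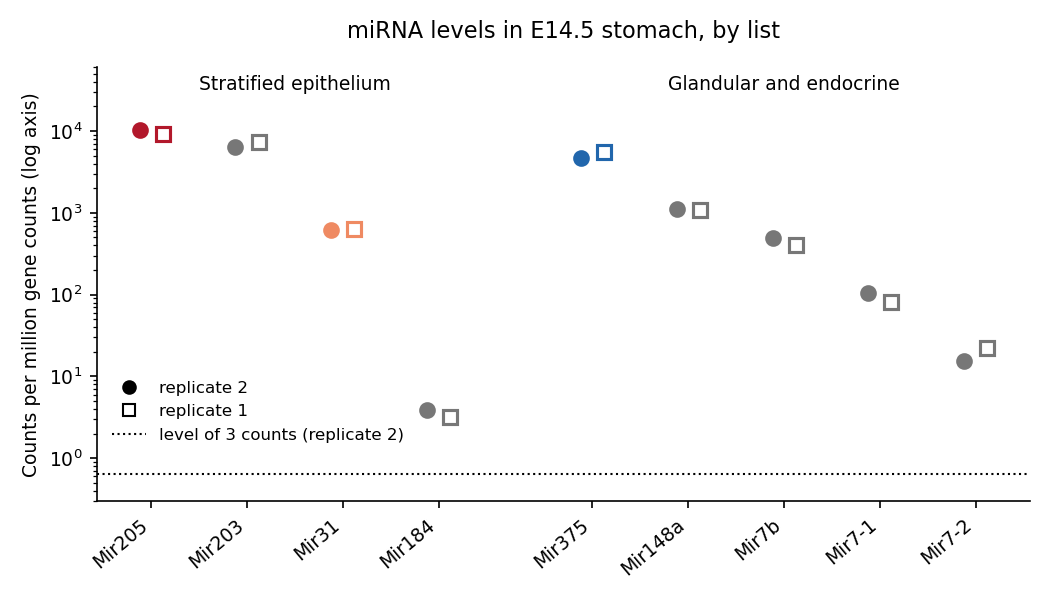
CPM on a log axis for the genes of the stratified list and of the glandular and endocrine list, in replicate 2 (filled circles) and replicate 1 (open squares). Mir205, Mir203 and Mir375 lie between 4678 and 10237 CPM, Mir31 near 626 CPM and Mir184 between 3.20 and 3.85 CPM, the lowest but still above the level of 3 counts (dotted).

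Of 4 intestinal markers, all detected, Mir192 and Mir215 were lower in replicate 2 by adjusted p alone, where 17.5% of all detected genes were lower. Both genes exceed 100 CPM, and 62.8% of the genes of that level were called in either direction. These calls are therefore no result about the intestinal list. Mir194-1 had a log2 ratio of -0.17 and Mir194-2 of -0.07, and neither passed. Mir802, known from liver, pancreas and intestine and named after its values were seen, had 12 counts in replicate 2 and 226 in replicate 1. It was among the 1.11% of detected genes that passed both thresholds, so it is an extreme gene picked from many. The liver marker Mir122 went the other way, at 65.8 CPM in replicate 2 and 56.7 CPM in replicate 1. Its log2 ratio was 0.21, and it did not pass by adjusted p. Pancreatic acinar markers totalled 5.98 CPM in replicate 2 and 6.59 CPM in replicate 1. Of these 3 genes only 1 was detected, Mir217, with 18 counts in replicate 2 and 23 in replicate 1. Counts this low could not show a modest difference. The part of neighbouring organs in the Mir375 difference was not tested.

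Genes of similar level over both libraries were found by the distance in log2(CPM + 1), taken over the 2 libraries among all detected genes. Nearest to Mir205 were Mir127 (distance 0.15), Mir411 (0.25) and Mirlet7d (0.30). Nearest to Mir375 were Mir431 (0.04), Mir98 (0.19) and Mir151 (0.22). Mir431 had 4602 CPM in replicate 2 and 5676 CPM in replicate 1, so it matched Mir375 in both. Nearest to Mir31 were Mir540 (0.06), Mir323 (0.10) and Mir497b (0.18), of which Mir497b took 3073 of its 3074 counts in replicate 2 from the strand opposite to its annotation. None of these 9 genes belongs to the epithelial lists. Those lists are small, with 4 stratified, 5 glandular and endocrine, 4 intestinal and 5 Mir200 family genes among the 361 detected. Mir127, Mir411, Mir431, Mir540 and Mir323 lie on chromosome 12. The share of that chromosome among all detected genes was not counted, so nothing is read from this. A likeness over 2 libraries is a likeness of level and says little of pattern.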

How the data were processed

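The deposited unit is counts per gene, 1 table per library, made on mm10 with GENCODE M4 per the file headers in the accompanying text. For the aligner and the counter, names were not given in the sources used. The tables hold 3 count columns without names. From the values, the last 2 columns separate the strands and add up to the one before them for every gene. That one, over both strands, was used, and own-strand counts served as an alternative. The 4 lines that name no gene were left out of totals. They held unmapped reads (13.5% of reads in replicate 2 and 12.5% in replicate 1), reads that map to several places (27.4% and 27.8%), reads outside genes (2.32% and 2.50%) and ambiguous reads (0). Symbols and positions came from GENCODE M21 on the same assembly, for 1894 of 1973 identifiers matched without version. Sequences came from RefSeq (GRCm38.p6).

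Levels are CPM, mean ± SD. Intervals are exact 95% binomial (Clopper-Pearson), and conditional on the sum for ratios. The test between libraries is an exact binomial test, two-sided, on 10 or more counts in both (scipy 1.17.1). Its code was checked on simulated counts that held counting error alone and changes larger than those of the 3 genes, called by both thresholds. The check therefore does not cover calls by adjusted p alone on small shifts. Scaling alternatives used edgeR 4.0.16 and DESeq2 1.42.0 for factors only, since 1 group of 2 samples leaves no contrast for a quasi-likelihood test. The members and lists were chosen with earlier results of these data known. The genes named are the members, their list genes, and the 3 nearest in level to each. Others are said to be chosen after their values were seen. The Mir200 denominator was likewise added after seeing the data.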

Additional observations from a re-analysis of the deposited data

How the results depend on the processing

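The signs of the ratios of the 3 genes between libraries held under each scaling tried. The order Mir205, Mir375, Mir31 held with either library left out. No other alternative could change that order or the signs of the ratios between the 3 genes. A scaling divides the 3 genes of a library by the same number, their own-strand counts equal their counts, and a pseudocount keeps the order. Ratios over the Mir200 family and list medians had no alternative run. Levels depend on the denominator. Per 1000000 reads of the whole table, the means were 5561 for Mir205, 2913 for Mir375 and 357 for Mir31. Without the 5 most abundant genes in the total they were 15538, 8154 and 998 CPM. With own-strand counts Mir31 had 644 CPM, a shift from 626 CPM that exceeds its small SD. The fewer or more reads in each total account for these shifts. TMM and size factors moved each mean by less than its SD. With either library left out, the levels ranged from 9299.5 to 10237 CPM for Mir205, 4678 to 5552 CPM for Mir375 and 618 to 635 CPM for Mir31. The log2 ratios ranged from 0.74 to 1.13 for Mir205 over Mir375, 3.87 to 4.05 for Mir205 over Mir31 and 2.92 to 3.13 for Mir375 over Mir31. A pseudocount of 0.5 counts changed no ratio at the precision given. Past both thresholds between libraries, 4 genes were called, and 7 when the minimum was 1 count in each library, the largest change among the alternatives. Depth does not limit the 3 genes, whose counts are at least 963 times the 3 that a count of 0 allows. The number of libraries does.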
